A study of Mus musculus with 5 samples.

Results

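The genes described here across 5 groups of mice are 10 genes of the liver sinusoid: the hyaluronan, scavenger and lectin receptors Lyve1, Stab1, Stab2 and Clec4g, the secreted protein Oit3, the junction protein Pecam1, the VEGF receptors Kdr, Flt1 and Flt4, and the angiopoietin receptor Tek. They were chosen by name, as the non-control probes that the array files assign to these 10 symbols, which gave 21 probes of 56605 and 10 gene names of 36870. All 10 genes had a probe well above background on all 5 arrays. The groups were BSO plus TGZ, TGZ alone, BSO plus RGZ, RGZ alone, and vehicle. By the study's title and general knowledge, TGZ is troglitazone, RGZ rosiglitazone and BSO buthionine sulfoximine, a blocker of glutathione synthesis. TGZ and RGZ were each given at 300 mg/kg and BSO at 700 mg/kg. All mice were female BALB/c animals aged 6 weeks, dosed intraperitoneally, and livers were taken at 6 hr. Each group was 1 pool of liver RNA from 6 animals on 1 single-colour array, and no group received BSO alone.

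Sinusoidal endothelial cells line the capillaries of the liver with a perforated wall that lets plasma reach the hepatocytes. They are known for clearing waste molecules from blood through receptors such as the stabilins. VEGF made by neighbouring liver cells acts on them through Kdr, which carries most of the growth and survival signal, while Flt1 binds the same ligand tightly with weaker signalling. Flt4 responds to VEGF-C and VEGF-D, and Tek, also called TIE2, binds the angiopoietins that steady the vessel wall.

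Levels are given as relative signal, the processed spot signal in multiples of the array's 75th percentile, and each probe is compared only with itself, except in the summed levels of marker lists. Intervals are 95% intervals built from the scanner software's error estimate for each spot. They leave out variation among animals, among pools and among labellings. With 1 array a group, the number of arrays sets the precision and no difference between groups was tested. A gene was counted as higher or lower when it differed by at least 2-fold. The 75th percentile of the arrays ran from 141.5 (TGZ) to 208.3 (RGZ), and 51.9% to 55.1% of probes were well above background. In whole liver RNA, fewer cells of a type and less RNA per cell cannot be told apart.

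The comparison of TGZ with vehicle asks how the sinusoidal genes stood 6 hr after the compound. The list split. Lyve1 was 13.4-fold higher, Kdr, Tek, Oit3 and Clec4g were 2.10-fold to 4.0-fold lower, and Stab1, Stab2, Pecam1, Flt1 and Flt4 differed by 1.33-fold or less at their main probes. Thus 1 of 10 was higher, where 10.1% of all 21215 genes with a value were, and 4 of 10 were lower, where 9.52% of all genes were. The median log2 difference of the 10 was -0.23, against 0.02 over all genes. Scaled to the spike-in RNA in place of the 75th percentile, these medians were -0.68 and -0.43, and Flt1 (-0.16), Pecam1 (-0.13) and Flt4 (-0.03) then lay below vehicle, while the 5 genes past 2-fold kept their calls. Normexp background correction took Tek under 2-fold (-0.60), and the mean over a gene's probes took Clec4g under it (-0.31) and Flt1 past it (1.31).

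**Figure D1:**
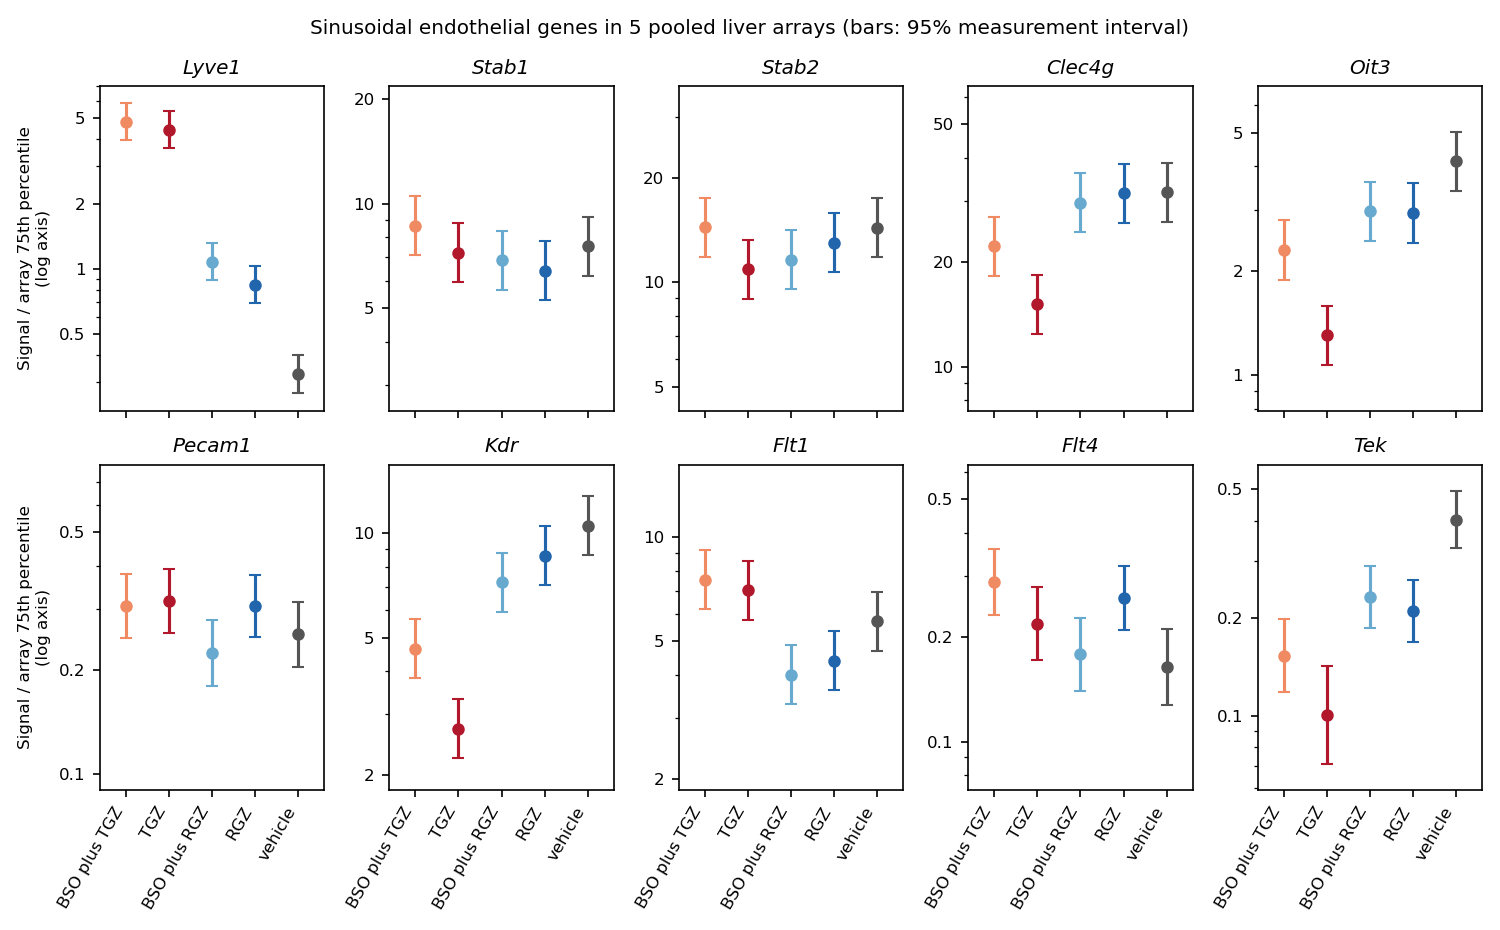
Relative signal (multiples of the array's 75th percentile, log axis) of the main probe of each of the 10 genes in the 5 pooled liver arrays, with bars for the 95% interval of spot measurement error. Lyve1 is lowest with vehicle, Kdr, Tek, Oit3 and Clec4g are lowest with TGZ, and the intervals of Stab1, Stab2 and Pecam1 overlap between all groups.

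Lyve1 encodes a hyaluronan receptor of lymphatic and sinusoidal endothelium that some macrophages also carry. Its probe on chromosome 7 (117994171 to 117994230, minus strand, mouse build mm9 as the array files give it) had a relative signal of 4.80 with BSO plus TGZ, 4.39 with TGZ, 1.08 with BSO plus RGZ, 0.846 with RGZ and 0.327 with vehicle. All 4 treated groups lay above vehicle, and both TGZ groups lay above both RGZ groups. Lyve1 was 14.7-fold higher with BSO plus TGZ than with vehicle (interval 11.0 to 19.5) and 13.4-fold higher with TGZ (10.1 to 17.9). With BSO plus RGZ it was 3.29-fold higher (2.47 to 4.38) and with RGZ 2.59-fold higher (1.94 to 3.45). Within each pair of groups with the same compound, the levels with and without BSO did not separate beyond measurement error. With normexp background correction the log2 differences of Lyve1 were smaller, at 3.07 with BSO plus TGZ, 2.90 with TGZ, 1.18 with BSO plus RGZ and 0.92 with RGZ, the last of them under 2-fold. The 4 comparisons with vehicle share the vehicle array.

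The stabilins, a pair of large scavenger receptors that take up hyaluronan and other waste, did not follow Lyve1. Stab1 had a relative signal of 8.63 with BSO plus TGZ, 7.22 with TGZ, 6.86 with BSO plus RGZ, 6.41 with RGZ and 7.55 with vehicle. No 2 neighbours in this order separated beyond their measurement intervals, and the TGZ level was 1.04-fold lower than vehicle (interval from 1.38-fold lower to 1.26-fold higher). Stab2 had 14.4 with BSO plus TGZ, 10.9 with TGZ, 11.6 with BSO plus RGZ, 13.0 with RGZ and 14.4 with vehicle. TGZ was lowest, 1.32-fold lower than vehicle (1.00 to 1.74), with the near end of the interval almost at no difference. The main probes lie on chromosome 14 at 31952288 to 31952347 for Stab1 and on chromosome 10 at 86303982 to 86304041 for Stab2, both on the minus strand of mm9.

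The 5 probes of Stab2 were all well above background on every array and did not give 1 answer for TGZ. The main probe and its near neighbour, 0.216 kb away, are both assigned to the full RefSeq transcript, and the neighbour was 1.19-fold lower with TGZ than with vehicle (interval from 1.57-fold lower to 1.11-fold higher). Probe A_55_P2026487 was 1.52-fold lower (1.15 to 2.01) and probe A_55_P2026492 1.91-fold lower (1.44 to 2.54). The files assign these to other transcript records. The largest difference was that of probe A_55_P2741015, assigned to a separate cDNA record and placed 42.2 kb from the main probe. It had a relative signal of 0.378 with BSO plus TGZ, 0.176 with TGZ, 0.617 with BSO plus RGZ, 0.824 with RGZ and 0.644 with vehicle. TGZ was thus lowest, 3.66-fold below vehicle (2.61 to 5.13), and BSO plus TGZ was 2.15-fold above TGZ (1.52 to 3.03). All 5 probes were lower with TGZ than with vehicle, by 1.19-fold to 3.66-fold.

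Clec4g, a C-type lectin of sinusoidal endothelium that binds glycoproteins, was lower with TGZ. Its main probe had a relative signal of 22.3 with BSO plus TGZ, 15.2 with TGZ, 29.7 with BSO plus RGZ, 31.7 with RGZ and 31.8 with vehicle. The 3 groups without TGZ stood together, BSO plus TGZ lay beneath them and TGZ was lowest. The difference from vehicle was 2.10-fold lower with TGZ (1.59 to 2.77) and 1.43-fold lower with BSO plus TGZ (1.08 to 1.88), with RGZ at 1.00-fold and BSO plus RGZ at 1.07-fold lower. The probe lies on chromosome 8 at 3716182 to 3716241 (mm9). Another, dim probe 9.05 kb away was 1.37-fold higher with TGZ (interval from 1.27-fold lower to 2.38-fold higher), and averaging both probes left a log2 difference of -0.31 for Clec4g.

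Oit3 encodes a secreted zona pellucida domain protein first described in liver. Relative signal was 2.29 with BSO plus TGZ, 1.30 with TGZ, 2.97 with BSO plus RGZ, 2.93 with RGZ and 4.14 with vehicle. Vehicle was highest and TGZ lowest, each separated from its neighbour in the order beyond measurement error. Oit3 was 3.18-fold lower with TGZ (2.41 to 4.21), 1.81-fold lower with BSO plus TGZ (1.37 to 2.38), 1.41-fold lower with RGZ (1.07 to 1.86) and 1.40-fold lower with BSO plus RGZ (1.06 to 1.84). The other Oit3 probe was not well above background in either TGZ group. There it gave bounds against vehicle, at least 2.30-fold lower with BSO plus TGZ and at least 2.08-fold lower with TGZ. The main probe lies on chromosome 10 at 58886254 to 58886313 (mm9).

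Pecam1, an adhesion protein of endothelial junctions that platelets and leukocytes also carry, had a relative signal of 0.305 with BSO plus TGZ, 0.317 with TGZ, 0.224 with BSO plus RGZ, 0.306 with RGZ and 0.254 with vehicle. The groups lay close together and no neighbours in the order separated. Against vehicle the differences ran from 1.25-fold higher with TGZ to 1.13-fold lower with BSO plus RGZ, and all 4 intervals included no difference. The Pecam1 probe lies on chromosome 11 at 106540864 to 106540923 (mm9).

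Kdr, the main signalling receptor for VEGF on endothelium, was lower in both TGZ groups than in the other 3. Its relative signal was 4.64 with BSO plus TGZ, 2.73 with TGZ, 7.22 with BSO plus RGZ, 8.62 with RGZ and 10.5 with vehicle. TGZ was lowest, BSO plus TGZ next, and the other groups stood above both. Kdr was 3.84-fold lower with TGZ (2.91 to 5.07), 2.26-fold lower with BSO plus TGZ (1.71 to 2.98), 1.45-fold lower with BSO plus RGZ (1.10 to 1.92) and 1.22-fold lower with RGZ (interval from 1.61-fold lower to 1.08-fold higher). The probe lies on chromosome 5 at 76329309 to 76329368 (mm9). The other 2 Kdr probes, placed 24.1 and 28.3 kb away, were not well above background on any array and gave no value.

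Tek, the receptor for angiopoietins, ran in the same direction at a dimmer probe on chromosome 4 (94540861 to 94540919, mm9). Relative signal was 0.153 with BSO plus TGZ, 0.101 with TGZ, 0.232 with BSO plus RGZ, 0.210 with RGZ and 0.403 with vehicle. Vehicle stood above all 4 treated groups, and this was the only step between neighbours beyond measurement error. Tek was 4.0-fold lower with TGZ (2.68 to 5.98), 2.63-fold lower with BSO plus TGZ (1.89 to 3.65), 1.92-fold lower with RGZ (1.42 to 2.59) and 1.73-fold lower with BSO plus RGZ (1.29 to 2.34). With normexp background correction the Tek difference no longer reached 2-fold, at -0.56 on the log2 scale with BSO plus TGZ and -0.60 with TGZ.

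**Figure D2:**
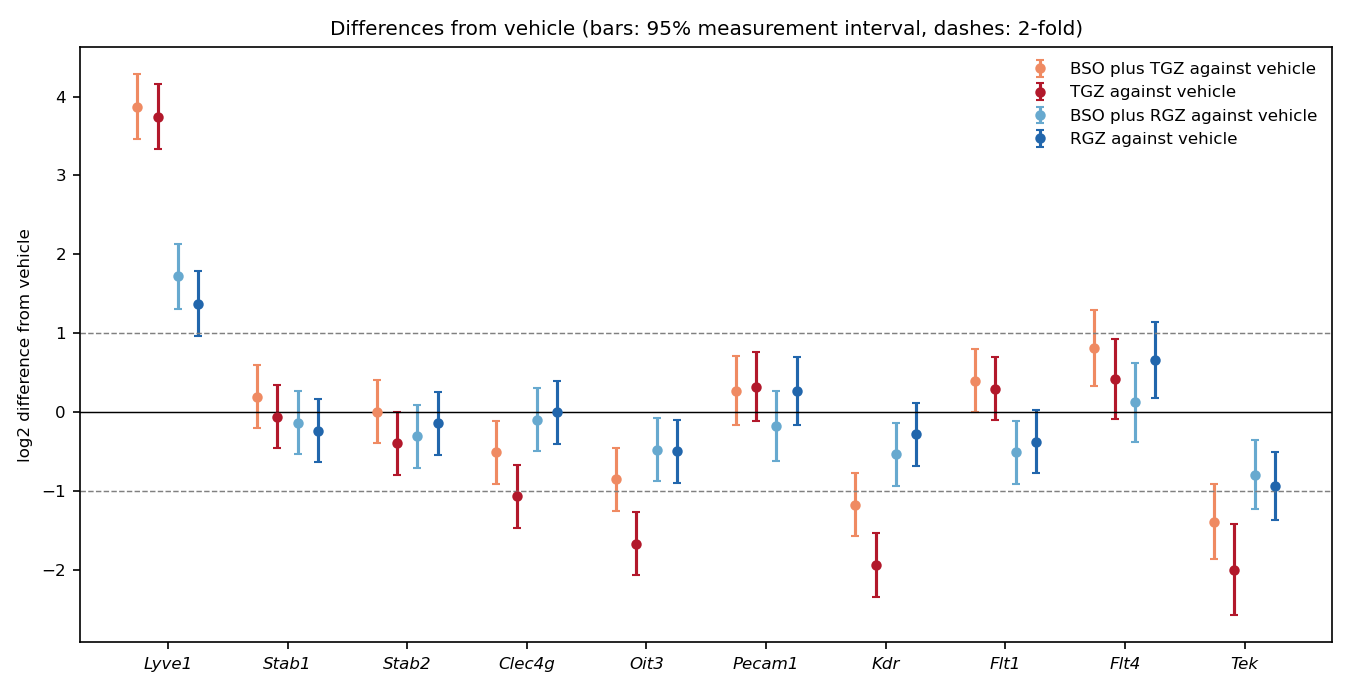
Log2 difference from vehicle of the main probe of each gene in the 4 treated groups, with bars for the 95% interval of spot measurement error and dashed lines at 2-fold. Lyve1 is above 2-fold in all 4 groups, Kdr and Tek are past 2-fold lower in both TGZ groups, and Oit3 and Clec4g in TGZ alone.

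The promoters of the lower genes that the RefSeq promoter table holds are printed to show whether genes that stood lower together share short motifs near their start. The table covers 7 of the 10 genes and lacks Lyve1, Oit3 and Pecam1. Each sequence is 300 bases, from 250 before to 50 after the annotated start, on build GRCm38.p6, whose coordinates are not those of mm9 used for the probes. Capitals mark matches on either strand to GGAAG, a form of the longer sites bound by ETS factors whose shared core is GGA followed by A or T, to AGATAA, bound by GATA factors, and to ACAAAG, bound by SOX factors. The Kdr promoter lies at chr5:75978406-75978705 on the minus strand, the Tek promoter at chr4:94739039-94739338 on the plus strand and the Clec4g promoter at chr8:3720602-3720901 on the minus strand.
Kdr: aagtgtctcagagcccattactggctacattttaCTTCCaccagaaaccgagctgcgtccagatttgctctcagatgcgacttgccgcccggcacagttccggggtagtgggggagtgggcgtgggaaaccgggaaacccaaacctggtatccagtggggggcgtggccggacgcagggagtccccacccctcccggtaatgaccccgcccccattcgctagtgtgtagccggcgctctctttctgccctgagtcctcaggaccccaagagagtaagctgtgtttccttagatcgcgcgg
Tek: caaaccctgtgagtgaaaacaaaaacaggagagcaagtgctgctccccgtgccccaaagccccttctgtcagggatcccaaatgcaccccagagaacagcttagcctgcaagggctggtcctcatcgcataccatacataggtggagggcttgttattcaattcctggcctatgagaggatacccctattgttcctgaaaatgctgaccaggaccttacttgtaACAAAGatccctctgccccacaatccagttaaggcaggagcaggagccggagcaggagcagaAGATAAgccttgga
Clec4g: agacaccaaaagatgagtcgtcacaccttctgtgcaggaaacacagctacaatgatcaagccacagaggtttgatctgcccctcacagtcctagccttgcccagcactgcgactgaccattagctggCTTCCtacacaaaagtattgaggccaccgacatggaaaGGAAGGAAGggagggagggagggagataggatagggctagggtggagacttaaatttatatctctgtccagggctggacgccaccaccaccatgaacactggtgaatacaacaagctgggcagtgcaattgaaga
The Kdr window held 1 GGAAG match and the Clec4g window 3, 2 of them overlapping, while Tek held none. Over the 7 promoters, 6 held GGAAG, against 71.4% of all 32851 promoters of the table, and the Tek window alone held AGATAA (11.2% of all promoters) and ACAAAG (18.7%). None of these 3 strings was in all 3 windows, which leaves out other forms of the sites. A match is a run of letters and does not show that a factor binds there.

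Flt1, the tight-binding VEGF receptor, gave different values at different probes. Besides the membrane receptor, the gene is known to make shortened transcripts for a soluble receptor that holds VEGF away from Kdr. The array carries 4 probes, all on the minus strand of chromosome 5 (mm9), and the first 30 bases of each are shown because the probes gave different values.
A_51_P398723: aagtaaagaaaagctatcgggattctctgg
A_55_P2800423: tcctcagaacaaaacctgaactgaactgag
A_55_P2735980: aggaggaatgattgtaccacacaaagtcat
A_52_P405145: tccctatcccaactacacattcaatcttct
The first probe (148373791 to 148373850) lies nearest the 3′ end and is assigned to the main RefSeq transcript. The next, A_55_P2800423 (148448888 to 148448947), and A_55_P2735980 (148450688 to 148450747) lie 75.1 and 76.9 kb upstream and are assigned to another transcript record. Probe A_52_P405145 (148465976 to 148466035) was not well above background on any array. The files do not say whether the other record encodes the soluble receptor.

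At the 3′ probe, Flt1 had a relative signal of 7.52 with BSO plus TGZ, 7.01 with TGZ, 4.01 with BSO plus RGZ, 4.39 with RGZ and 5.72 with vehicle. The TGZ groups stood above vehicle and the RGZ groups below it, but no neighbours in that order separated. Against vehicle this probe was 1.31-fold higher with BSO plus TGZ (from 1.00-fold lower to 1.73-fold higher) and 1.22-fold higher with TGZ (from 1.08-fold lower to 1.62-fold higher). It was 1.43-fold lower with BSO plus RGZ (1.08 to 1.88) and 1.30-fold lower with RGZ (from 1.72-fold lower to 1.01-fold higher). Only the interval for BSO plus RGZ excluded no difference. At probe A_55_P2735980 the values were 0.518 with BSO plus TGZ, 0.419 with TGZ, 0.0792 with BSO plus RGZ, 0.102 with RGZ and 0.0691 with vehicle. Here both TGZ groups stood well clear of the other 3. The vehicle and BSO plus RGZ values were near the lowest signal called well above background, 0.0559 and 0.0530 on those arrays. How normexp background correction alters this probe was not tested. That probe was 7.51-fold higher with BSO plus TGZ than with vehicle (4.79 to 11.8) and 6.07-fold higher with TGZ (3.87 to 9.53). Probe A_55_P2800423 was 2.09-fold higher with BSO plus TGZ (1.57 to 2.78) and 2.06-fold higher with TGZ (1.55 to 2.74), and lay at 1.00-fold with RGZ.

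The upstream probes moved apart from the 3′ probe by more than measurement error in the TGZ groups, and A_55_P2735980 did so with RGZ too. The ratio of the difference from vehicle at A_55_P2735980 to that at the 3′ probe was 5.71 with BSO plus TGZ (3.37 to 9.68), 4.96 with TGZ (2.92 to 8.42), 1.64 with BSO plus RGZ (0.900 to 2.98) and 1.93 with RGZ (1.09 to 3.39). For A_55_P2800423 the ratio was 1.59 with BSO plus TGZ (1.07 to 2.36) and 1.68 with TGZ (1.13 to 2.50). Flt1 therefore passed 2-fold with TGZ when all its probes above background were averaged, at 1.31 on the log2 scale, and not at its brightest probe, at 0.29. That mean and the ratios of A_55_P2735980 lean on its dim vehicle signal.

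**Figure D3:**
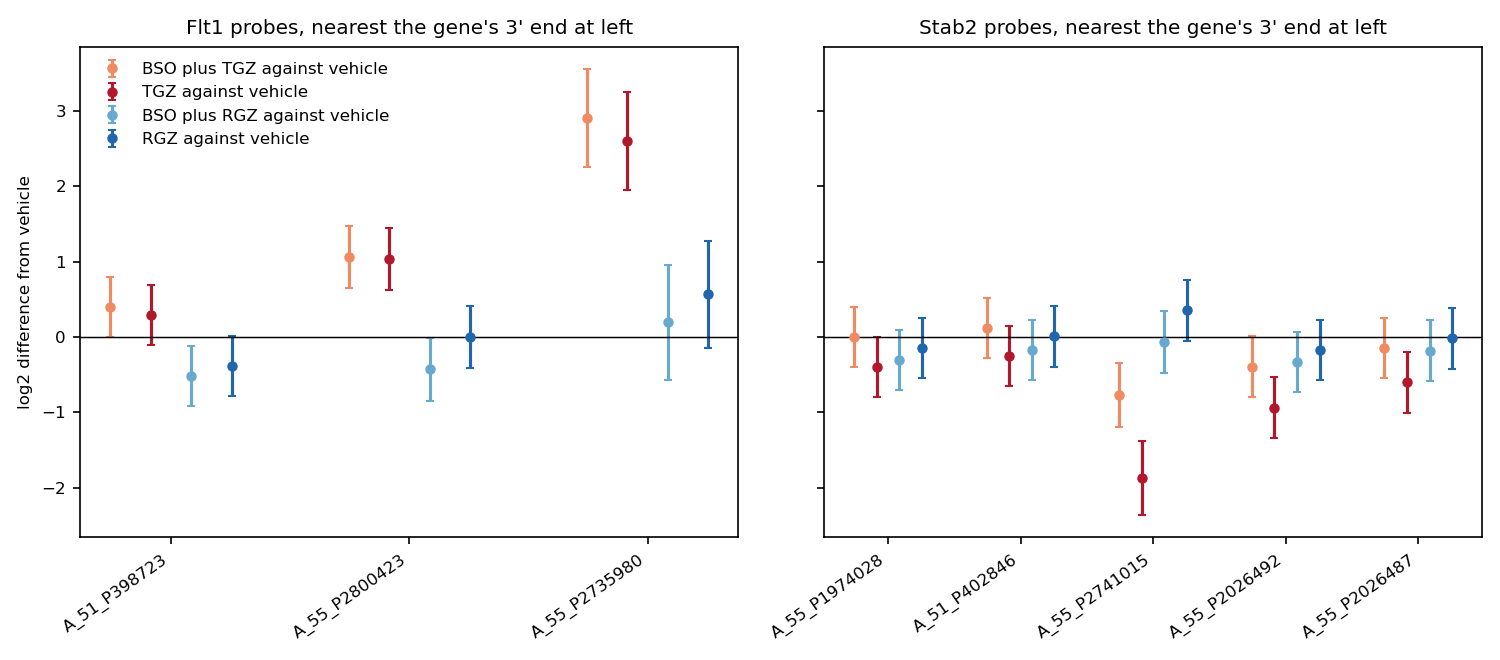
Log2 difference from vehicle at each Flt1 and Stab2 probe that was well above background on all 5 arrays, with bars for the 95% interval of spot measurement error. The Flt1 probes upstream of the 3′ end are higher in the TGZ groups by 2.06-fold to 7.51-fold, and Stab2 probe A_55_P2741015 is 3.66-fold lower with TGZ.

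Flt4, the receptor for VEGF-C and VEGF-D known from lymphatic vessels, differed by less than 2-fold between any 2 groups. Its relative signal was 0.288 with BSO plus TGZ, 0.219 with TGZ, 0.178 with BSO plus RGZ, 0.260 with RGZ and 0.164 with vehicle. Vehicle was lowest, but no neighbours in the order separated. Flt4 was 1.76-fold higher with BSO plus TGZ (1.26 to 2.46) and 1.58-fold higher with RGZ (1.13 to 2.21), and the intervals for TGZ and for BSO plus RGZ included no difference. Its probe lies on chromosome 11 at 49465646 to 49465705, plus strand of mm9.

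With BSO plus TGZ against vehicle, 1 of the 10 genes was at least 2-fold higher (Lyve1, against 8.32% of all genes) and 2 were lower (Kdr and Tek, against 5.89%). With RGZ, 1 was higher (Lyve1, against 1.66% of all genes) and 0 lower (1.66%). With BSO plus RGZ, 1 was higher (Lyve1, against 3.05%) and 0 lower (3.78%). The median log2 differences were 0.10 with BSO plus TGZ, -0.24 with BSO plus RGZ and -0.19 with RGZ, beside all-gene medians of -0.03, -0.05 and -0.03. Scaled to the spike-in RNA, the median with BSO plus TGZ was -0.09 and so changed sign.

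Adding BSO to TGZ asks whether blocked glutathione synthesis alters the response. In BSO plus TGZ 9 of the 10 genes stood above TGZ, with a median log2 difference of 0.40 against -0.02 over all genes. None passed 2-fold at its main probe, beside 1.57% of all genes that were higher by that much and 0.495% that were lower. Stab2 probe A_55_P2741015 was past 2-fold higher. The measurement interval lay above no difference for 4 of 10 main probes, against 6.65% of all genes, and below it for 0, against 4.76%. Oit3 was 1.76-fold higher with BSO plus TGZ than with TGZ (1.34 to 2.33), Kdr 1.70-fold (1.29 to 2.24), Clec4g 1.47-fold (1.12 to 1.94) and Stab2 1.32-fold (1.00 to 1.74). Tek was 1.52-fold higher (0.991 to 2.35), an interval that included no difference. The comparisons of TGZ with vehicle and of BSO plus TGZ with TGZ share the TGZ array.

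In BSO plus RGZ against RGZ, 0 of 10 genes passed 2-fold in either direction, where 0.513% of all genes were higher and 0.716% lower. Flt4 was 1.46-fold lower (1.05 to 2.01) and Pecam1 1.36-fold lower (1.01 to 1.84). These were the 2 of 10 main probes whose interval lay below no difference, against 5.34% of all genes, and 0 of 10 lay above it, against 4.42%. Some other probes differed. Oit3 probe A_51_P214557 was 1.74-fold higher (1.17 to 2.59). Flt1 probe A_55_P2800423 was 1.35-fold lower (1.01 to 1.80) and Stab2 probe A_55_P2741015 1.34-fold lower (1.01 to 1.77). The effect of BSO with TGZ minus its effect with RGZ, on the log2 scale, was 1.02 for Kdr (0.46 to 1.59), 0.94 for Flt4 (0.28 to 1.60), 0.80 for Oit3 (0.24 to 1.37), 0.65 for Clec4g (0.08 to 1.21) and 0.57 for Stab2 (0.00 to 1.13). At the main probes the interval lay above 0 for these 5 of 10 genes, as it did for 6.48% of all genes. It lay below 0 for 0 genes (4.51% of all genes) and included 0 for the other 5. The Oit3 value rests on a main-probe difference of 0.02 between BSO plus RGZ and RGZ, where the other Oit3 probe gave 0.80. That other probe gave no value for BSO plus TGZ against TGZ. With no BSO-alone group, the effect of BSO itself cannot be told apart from a changed response to TGZ or RGZ in these comparisons.

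TGZ and RGZ are both thiazolidinediones, ligands of the nuclear receptor PPAR gamma, and were given at the same dose and time. Troglitazone carries a chromanol group like that of vitamin E where rosiglitazone carries an aminopyridine. The compounds were compared for each of the 10 genes in 2 pairings, with and without BSO, and no p-value could be had from single arrays. Without BSO, 1 of 10 genes was at least 2-fold higher with TGZ than with RGZ (9.41% of all genes) and 4 of 10 were lower (8.57%). Lyve1 was 5.19-fold higher with TGZ (3.93 to 6.85). Kdr was 3.16-fold lower (2.39 to 4.17), Oit3 2.25-fold lower (1.71 to 2.98), Clec4g 2.09-fold lower (1.59 to 2.76) and Tek 2.09-fold lower (1.39 to 3.15), although Tek fell short of 2-fold with normexp background correction (log2 difference -0.11) and Clec4g with the mean over probes (-0.14). Flt1 at its 3′ probe was 1.59-fold higher with TGZ (1.21 to 2.10), and the mean over its probes put it at 1.25 on the log2 scale.

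At the main probes of the other 4 genes the interval between TGZ and RGZ included no difference. This does not show that the compounds act alike on those genes. Stab1 was 1.13-fold higher with TGZ (from 1.17-fold lower to 1.49-fold higher), Stab2 1.19-fold lower (from 1.58-fold lower to 1.10-fold higher), Flt4 1.19-fold lower (from 1.64-fold lower to 1.17-fold higher) and Pecam1 1.04-fold higher (from 1.30-fold lower to 1.40-fold higher). Other Stab2 probes did separate TGZ from RGZ. Probe A_55_P2741015 was 4.68-fold lower with TGZ than with RGZ (3.34 to 6.55). Probes A_55_P2026492 and A_55_P2026487 were also lower with TGZ, and their intervals excluded no difference. The interval of A_51_P402846, the near neighbour of the main probe, included no difference. With BSO in both groups, 1 of 10 was at least 2-fold higher with BSO plus TGZ than with BSO plus RGZ (8.33% of all genes) and 0 lower (5.28%). Lyve1 was 4.45-fold higher (3.37 to 5.88), Flt1 1.88-fold higher (1.42 to 2.48), Flt4 1.62-fold higher (1.17 to 2.24) and Pecam1 1.36-fold higher (1.00 to 1.85). Kdr was 1.55-fold lower (1.18 to 2.05), Tek 1.51-fold lower (1.08 to 2.12), Clec4g 1.33-fold lower (1.01 to 1.76) and Oit3 1.29-fold lower (from 1.71-fold lower to 1.02-fold higher).

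By profile over the 5 groups, measured as the root mean square distance of log2 values centred on each gene's own mean, the 10 genes formed an outlier and tighter sets. Lyve1 was far from every other, with 1.28 to its nearest, Flt1. Tek and Oit3 were nearest each other at 0.18, Kdr and Clec4g each had Oit3 as nearest at 0.19 and 0.20, and Stab1 and Stab2 were nearest each other at 0.15. Flt4 and Pecam1 were nearest each other at 0.20. Among 13900 other genes, those closest to the median profile of the 10 were Mad2l1 (0.03), 1810010H24Rik (0.04), Tmsb4x (0.04), Pde1c (0.05), Axl (0.05) and Ermap (0.05). The largest log2 difference among these 6 was 0.36, for Pde1c in BSO plus TGZ against BSO plus RGZ. It was under the 0.40 median reach of the measurement intervals of the 10 genes, so likeness here is mostly lack of change. At their main probes, Stab1, Stab2, Flt1, Flt4 and Pecam1 had no neighbours in order that separated. That does not show lack of change, since groups farther apart in the order can separate. Flt4 was 1.76-fold higher with BSO plus TGZ than with vehicle (1.26 to 2.46). The distances describe 5 arrays only.

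Other genes known from sinusoidal endothelium leaned lower with TGZ. Of 21 with a value, 6 were lower by 2-fold or more and 1 was higher, beside 9.52% and 10.1% of all genes, with a median log2 difference of -0.73. With RGZ 2 of 21 were lower, beside 1.66% of all genes, and the median was -0.29. A lower median with TGZ was not limited to sinusoidal genes. It was -0.60 for 6 lymphocyte markers with a value (4 below 0) and -0.30 for 12 Kupffer cell and macrophage markers (8 below 0). By 2-fold or more, 1 of these lymphocyte markers and 0 of the macrophage markers were lower with TGZ, beside 9.52% of all genes. Fcgr2b, an inhibitory Fc receptor that clears immune complexes, had a relative signal of 1.24 with BSO plus TGZ, 0.821 with TGZ, 1.63 with BSO plus RGZ, 1.86 with RGZ and 2.27 with vehicle, and was 2.76-fold lower with TGZ than with vehicle. Dnase1l3, a secreted nuclease, was 2.20-fold lower with TGZ, and Bmp6, an iron-regulating ligand, was at least 1.82-fold lower. Ctsl, a lysosomal protease also made by many other cells, was the 1 higher gene, at 3.02-fold.

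Genes shared by endothelium in general had a median near 0. Of 26, 6 were past 2-fold higher with TGZ and 2 were past it lower, beside 10.1% and 9.52% of all genes, with a median of -0.04. With RGZ 0 of 26 passed 2-fold, beside 1.66% of all genes in each direction. Vwf, the platelet-tethering protein of larger vessels, had a relative signal of 19.4 with BSO plus TGZ, 16.7 with TGZ, 1.96 with BSO plus RGZ, 1.90 with RGZ and 2.43 with vehicle, which made it 6.87-fold higher with TGZ than with vehicle. Klf4, a flow-responsive transcription factor, was 5.74-fold higher with TGZ and Nos3, the endothelial nitric oxide synthase, 4.73-fold higher. Adgrl4, an adhesion G protein-coupled receptor, was 3.49-fold lower.

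The ligands, coreceptors and regulators of the VEGF and angiopoietin receptors were mostly within 2-fold. Of 15 with a value, 2 were higher and 1 lower with TGZ, near the shares of all genes (10.1% and 9.52%). Of 17 with a value 1 was higher with RGZ, beside 1.66% of all genes. Nrp1, a coreceptor of Kdr that other liver cells also make, had a relative signal of 51.4 with BSO plus TGZ, 71.8 with TGZ, 24.9 with BSO plus RGZ, 30.1 with RGZ and 14.2 with vehicle. It was 5.05-fold higher with TGZ and 2.12-fold higher with RGZ than with vehicle. Angptl4, a lipase inhibitor and known PPAR target, was 2.10-fold higher with TGZ and 1.72-fold with RGZ. Hey1, a Notch target, was at least 2.41-fold lower with TGZ, and the TIE2 agonist Angpt1 at least 1.37-fold lower. The ligands Vegfa and Angpt2, picked out after their values were seen, were 1.12-fold and 1.06-fold higher with TGZ.

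Genes of inflammatory endothelial activation and immediate targets of VEGF signalling stood higher with TGZ, though neither list is particular to endothelium. Of 17 activation genes with a value, 13 were at least 2-fold higher with TGZ and 0 lower (median 1.57), beside 10.1% and 9.52% of all genes. With RGZ 4 of 16 were higher (median 0.34), beside 1.66% of all genes. Cxcl1, a chemokine that draws neutrophils, was 44.3-fold higher with TGZ and 2.08-fold higher with RGZ. Of 5 VEGF-induced genes with a value, 4 were higher and 1 lower with TGZ, beside the same 10.1% and 9.52% of all genes. With RGZ 0 passed 2-fold, beside 1.66% of all genes in each direction. Rcan1, a calcineurin inhibitor, was 7.20-fold higher with TGZ, and F3, which encodes tissue factor, 3.21-fold lower. The 5 lymphatic endothelial genes, among them Prox1 and Pdpn, were within 2-fold with TGZ (median -0.01). With RGZ 1 of the 5 was at least 2-fold lower (median -0.25), beside 1.66% of all genes. With BSO plus RGZ 1 was lower (median -0.63), beside 3.78%.

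**Figure D4:**
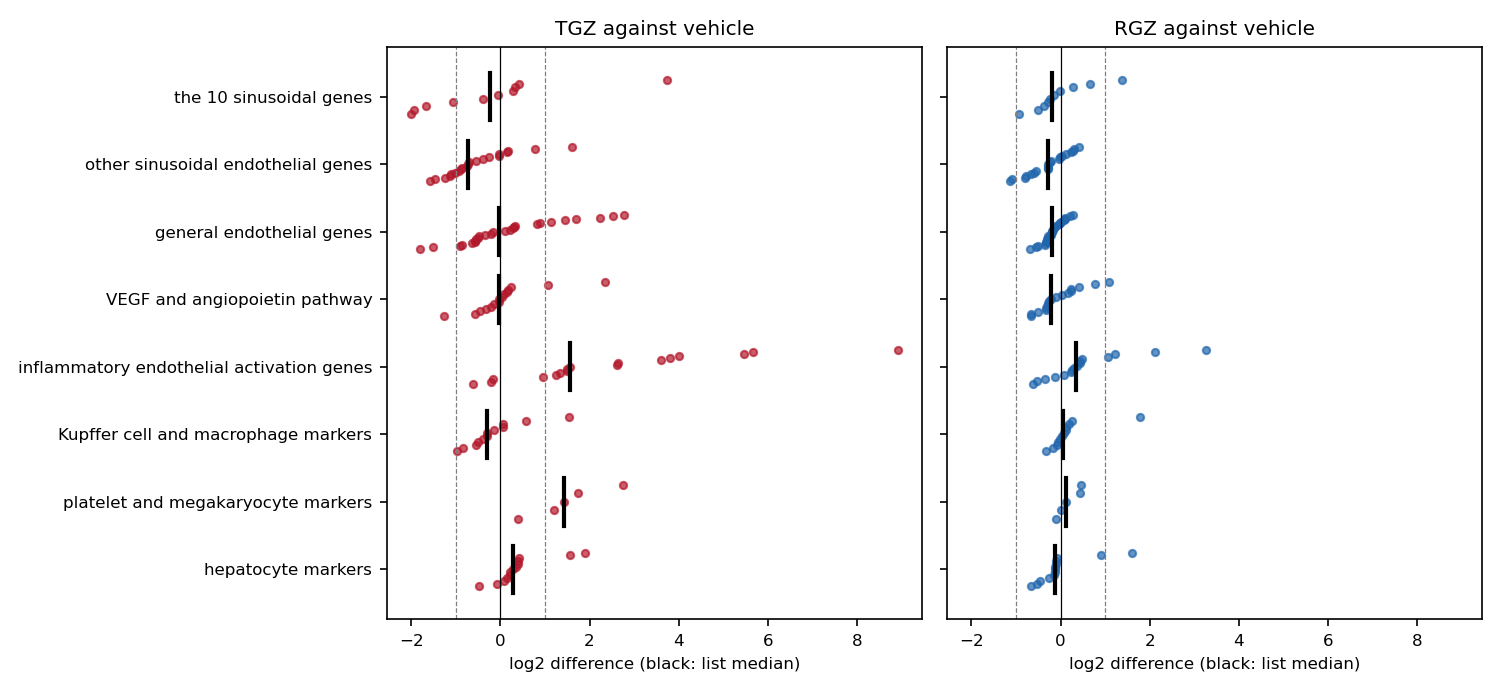
Log2 difference from vehicle of every gene with a value in 8 lists, for TGZ (left) and RGZ (right). Points are genes, with bounds drawn at the bound, black lines are list medians and dashes mark 2-fold; with TGZ the other sinusoidal genes have a median of -0.73 and the inflammatory activation genes 1.57.

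Markers of some other cells moved alongside these differences. For comparison with the counts below, 10.1% of all genes were at least 2-fold higher with TGZ and 9.52% lower. The summed relative signal of 11 neutrophil markers was 257 with BSO plus TGZ, 256 with TGZ, 126 with BSO plus RGZ, 120 with RGZ and 110 with vehicle, and 8 of 11 were at least 2-fold higher with TGZ, with a median log2 difference of 2.08. Sums are led by the brightest probes, and 4 of the 11 were not well above background with vehicle. Of 7 platelet markers, 5 had a value with TGZ and 4 of them were higher. All 7 summed to 10.5 with BSO plus TGZ, 10.9 with TGZ, 2.97 with BSO plus RGZ, 2.44 with RGZ and 2.41 with vehicle. Of the 7, 3 were not well above background with vehicle, 3 with BSO plus RGZ, 2 with TGZ, 2 with RGZ and 1 with BSO plus TGZ. Both cell types also carry Pecam1. The 12 Kupffer cell and macrophage markers, cells that can carry Lyve1, summed to 86.5 with BSO plus TGZ, 67.8 with TGZ, 73.0 with BSO plus RGZ, 77.0 with RGZ and 73.2 with vehicle, and 1 of 12 (Cd68) was 2-fold higher with TGZ. The median of these macrophage markers was 0.53 log2 higher with BSO plus TGZ than with TGZ, beside 0.40 for the 10 sinusoidal genes. The 13 hepatocyte markers had a median of 0.28 with TGZ and the 10 housekeeping genes 0.17, and no housekeeping gene passed 2-fold. All markers of the Kupffer cell, hepatocyte and housekeeping lists were well above background on every array. The part of other cell types in the values of the sinusoidal genes was not tested.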

How the data were processed

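Liver RNA of 5 groups was measured, 1 pool of 6 animals and 1 array per group, labelled with Cy3 per the labels. The deposited array files give a processed intensity for every spot. Per the file headers it comes from Agilent Feature Extraction 12.0.3.1, which subtracted background and removed spatial trends. The authors' deposited value table holds log2 values that differ from the log2 of that signal by 1 constant on each array. Its medians over non-control probes were 4.08 for BSO plus TGZ, 4.02 for TGZ, 3.92 for BSO plus RGZ, 4.01 for RGZ and 4.03 for vehicle, so the table is scaled between arrays with no centring of genes. It was used as an alternative.

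Spots of a probe were averaged, leaving out spots with an outlier flag, and the log2 of the array's 75th percentile over non-control probes was subtracted. The main probe of a gene is the 1 with the highest mean across arrays. Where 1 array of a comparison had the probe well above background and the other did not, the lowest signal called well above background on the dim array replaced its value and the fold is a bound. All 10 genes were named, with every probe. From each of 14 context lists (177 genes, 176 matched by name), up to 4 genes farthest from 0 in the mean over the comparisons with vehicle were named, and from the rest of the array the 6 genes nearest the median profile. The text describes part of these, and 1 gene among them is left unreported. The 10 genes and the lists were chosen with earlier results of these data known. Alternatives were normexp background correction (offset 50, limma 3.58.1 in R 4.3.3), scaling to the median, quantiles or spike-in RNA, the deposited table, the mean over probes, and 3 filters on dim probes. Calculations used Python 3.11.15, pandas 2.3.3 and numpy 2.4.6 and were tested on simulated data. Exon, intron and UTR annotation of the probes on mm9 was not used here.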

Additional observations from a re-analysis of the deposited data

How the results depend on the processing

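No paired analysis was possible because each group had 1 array, and for the same reason no replicate could be left out. The 8 medians of the 10 genes moved by less than the median reach of the measurement intervals to either side (0.40) under all alternatives except scaling to the spike-in RNA, which gave -0.68 for TGZ against vehicle and -0.79 for TGZ against RGZ, beside all-gene medians of -0.43 and -0.46. Of 80 differences (10 genes in 8 comparisons), the side of the 2-fold threshold changed for 4 with normexp background correction, 3 with spike-in scaling and 8 with the mean over probes, and for 0 with median scaling, quantile normalization, the deposited table and the 3 filters. Normexp took Tek under 2-fold in BSO plus TGZ (-0.56) and TGZ (-0.60) against vehicle and in TGZ against RGZ (-0.11), and Lyve1 in RGZ against vehicle (0.92). Spike-in scaling took Oit3 past it in BSO plus TGZ against vehicle (-1.04) and Kdr (1.03) and Oit3 (1.08) in BSO plus TGZ against TGZ. The mean over probes took Flt1 past it in BSO plus TGZ (1.46) and TGZ (1.31) against vehicle, TGZ against RGZ (1.25) and BSO plus TGZ against BSO plus RGZ (1.70), and took Clec4g under it in TGZ against vehicle (-0.31) and RGZ (-0.14). Its other 2 changes, for Oit3 in BSO plus TGZ against vehicle and BSO plus RGZ, rest on a probe not above background with BSO plus TGZ and are not read. Lyve1 in TGZ against vehicle ranged from 2.90 with normexp to 3.76, and Kdr from -2.39 with spike-in scaling to -1.89. The causes were not tested.

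Counts over all genes moved more. For TGZ against vehicle, 2147 genes were higher and 2020 lower, against 1097 and 906 with normexp, 1210 and 4249 with spike-in scaling and 3682 and 3206 with no filter on dim probes. For BSO plus TGZ the counts were 1781 and 1262, against 887 and 488, 1393 and 1962, and 3176 and 2398. For RGZ they were 352 and 354, against 135 and 89, 452 and 259, and 1173 and 1635, and 233 and 209 among genes above background on all 5 arrays. For BSO plus RGZ they were 646 and 801, against 279 and 248, 901 and 577, and 1564 and 2337, and 844 and 621 with median scaling. For TGZ against RGZ they were 1984 and 1808, against 943 and 838, 972 and 4550, and 3748 and 2777. For BSO plus TGZ against BSO plus RGZ they were 1775 and 1124, against 736 and 443, 1071 and 2396, and 3602 and 2071, and 1370 and 1656 with median scaling. For BSO plus TGZ against TGZ they were 326 and 103, against 49 and 17, 672 and 42, and 1374 and 1260, with 257 and 144 under median scaling, 202 and 32 above background on all 5 arrays and 209 and 52 with the submitters' filter, which the labels write with the flag for a significant positive signal at 0 and which was run with it at 1. For BSO plus RGZ against RGZ they were 109 and 152, against 22 and 21, 130 and 130, and 1124 and 1353, with 154 and 101 under median scaling, 133 and 110 with quantile normalization, 47 and 70 above background on all 5 arrays and 68 and 88 with the submitters' filter. Tek, Flt4 and Pecam1 had main probes under 0.5 of the array's 75th percentile in all groups.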

Other observations

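Further genes of the context lists, picked out after their values were seen, showed how endothelial genes divided between the TGZ and RGZ groups. Bmp2, a ligand that sinusoidal endothelium uses to set hepcidin, had a relative signal of 2.03 with BSO plus TGZ, 1.43 with TGZ, 4.19 with BSO plus RGZ, 4.23 with RGZ and 4.25 with vehicle. The groups without TGZ were within 1.01-fold of vehicle, and TGZ was 2.97-fold lower. Gata4, a transcription factor of sinusoidal identity, was 2.35-fold lower with TGZ and 1.03-fold lower with RGZ than with vehicle. Cldn5, a tight junction protein, was 2.85-fold lower with TGZ, and Gpr182, an atypical chemokine receptor of sinusoids, 2.17-fold lower.

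Other endothelial genes stood higher with TGZ. Thbd, the anticoagulant receptor thrombomodulin, had a relative signal of 7.17 with BSO plus TGZ, 6.66 with TGZ, 0.413 with BSO plus RGZ, 0.328 with RGZ and 0.417 with vehicle. Both TGZ groups were clear of the other 3, and TGZ was 16.0-fold above vehicle. Klf2, a flow-responsive transcription factor, was 3.25-fold higher with TGZ, the junction protein Esam 2.73-fold and Cdh5, which encodes VE-cadherin, 2.21-fold. With RGZ, these 3 genes were within 1.13-fold of vehicle. In the stellate cell list of 14 genes, 2 were at least 2-fold higher and 1 lower with TGZ, with a median of 0.16. These counts are near the shares of all genes (10.1% and 9.52%). The lower gene was Lrat, the enzyme that stores vitamin A, at 4.62-fold with TGZ and 1.84-fold with RGZ.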
